A study of Mus musculus with 18 samples.

Results

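Long noncoding RNAs (lncRNAs) are transcripts without a long open reading frame, and this text describes the open chromatin at their promoters in the mouse retina. A promoter was counted when a region of open chromatin had its summit between 1 kb upstream and 100 bp downstream of the transcript start of an annotated lncRNA (mm10, GENCODE M21 basic set) and more than 2.5 kb from every protein-coding transcript start. Of 73567 open regions called in at least 2 of 18 libraries, 965 met this rule. The regions were made by merging all peaks that overlapped by at least 1 bp, and the summit of a region was the median of the summits of its peaks.

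The libraries came from ATAC-seq, in which a transposase cuts and tags accessible DNA, on whole retinas of wild-type mice in 6 groups of 3. At 3 months and at 18 months of age, retinas were collected, on day 2 by the labels and a day later by the study's text, after 1 eye had been held at 30 mmHg of intraocular pressure (IOP) for 1 h, from the pressurised eye (IOP group) and from its fellow without pressure elevation (contralateral group). Untreated retinas of both ages came from mice without IOP elevation, with no collection day given. All labels carry a common text that mentions dasatinib or vehicle injected after IOP elevation, but no label gives a drug for an ATAC-seq library. The contralateral eye belongs to an animal that was treated, sex is not stated, and because a retina pools many cell types, fewer cells of a type and less open chromatin per cell cannot be told apart. The labels do not say that libraries of a group came from separate mice, so that p-values measure the spread between these samples. Each library was represented by its list of peaks, 36011 to 66160 of them, all with a q-value of at most 0.0499, and the number of reads behind a list was not recorded in it. A promoter without a peak in a library is therefore one that was not detected at that depth.

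A lncRNA promoter is built like a promoter of a protein-coding gene: transcription factors and RNA polymerase II assemble on a stretch depleted of nucleosomes just upstream of the start, often in both directions. Many lncRNAs are transcribed in few cell types, some serve mainly as host transcripts for microRNAs or small nucleolar RNAs, and a few act on chromatin in cis, for example in genomic imprinting and X inactivation. In the retina, lncRNAs named after the microRNAs miR-124 and miR-9 and the transcript opposite Vax2 are known from neurons and their progenitors.

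The 965 promoters belonged to 913 nearest genes, 48 of which had at least 2. In all, 934 of the 9793 annotated lncRNA genes (9.54%) had such a promoter in their window. A further 983 genes had an open region only where a protein-coding start lay within 2.5 kb, and 7876 had none. By type, 544 promoters belonged to lincRNAs (transcripts between coding genes), 297 to antisense transcripts, 123 to genes annotated as processed transcripts and 1, Gm26839, to a bidirectional promoter lncRNA, a type with 190 annotated genes that nearly all start beside a coding gene. By position, 689 (71.4%) lay outside coding genes and 256 (26.5%) inside a coding gene of the opposite strand. The median distance to a coding start was 32128 bp, and 360 promoters were more than 50 kb away from any.

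The sequences of 8 promoters carry the results that follow. Each is 150 bases of GRCm38.p6 around the median summit, written 5′ to 3′ on the strand of the lncRNA. Capitals mark matches on either strand to any of 12 motifs: the TATA box (TATAAA), the CCAAT box (CCAAT), the GC box bound by Sp factors (GGGCGG), the cyclic AMP response element CRE (TGACGTCA), ETS (CCGGAAGT), NRF1 (GCATGCGC), the Crx and Otx2 core (TAATCC), the homeodomain core (TAATTA), the E-box (CACGTG), STAT (TTCNNNGAA), AP-1 (TGANTCA) and CTCF. Matches of different motifs may overlap. Gm10830 (chr15:103102105-103102254, plus strand) is shown because its calls followed age, Gm19510 (chr15:59795834-59795983, minus) because it was called more often at 3 months, and Gm38563 (chr15:61157669-61157818, plus) because it was called less often after IOP. AA465934 (chr11:83291592-83291741, plus) had the highest peaks, Neat1 (chr19:5845915-5846064, minus) and Mir9-3hg (chr7:79499919-79500068, plus) are CpG-rich, and Mir124-2hg (chr3:17793863-17794012, plus) and Vax2os (chr6:83703555-83703704, minus) contain the Crx and Otx2 core.
Gm10830: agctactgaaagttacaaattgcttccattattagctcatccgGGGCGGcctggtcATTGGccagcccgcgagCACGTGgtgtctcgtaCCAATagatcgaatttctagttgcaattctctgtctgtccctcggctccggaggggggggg
Gm19510: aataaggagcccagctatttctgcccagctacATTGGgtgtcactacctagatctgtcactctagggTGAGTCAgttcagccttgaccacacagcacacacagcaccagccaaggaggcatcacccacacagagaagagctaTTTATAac
Gm38563: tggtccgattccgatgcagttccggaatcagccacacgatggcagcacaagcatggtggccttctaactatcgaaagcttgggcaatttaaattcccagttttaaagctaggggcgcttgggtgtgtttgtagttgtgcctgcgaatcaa
AA465934: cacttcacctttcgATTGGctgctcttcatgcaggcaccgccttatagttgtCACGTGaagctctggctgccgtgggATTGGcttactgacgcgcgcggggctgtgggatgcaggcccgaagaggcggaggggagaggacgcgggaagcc
Neat1: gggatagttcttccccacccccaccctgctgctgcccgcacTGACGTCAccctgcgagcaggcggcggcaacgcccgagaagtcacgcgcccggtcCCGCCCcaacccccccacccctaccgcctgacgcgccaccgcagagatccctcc
Mir9-3hg: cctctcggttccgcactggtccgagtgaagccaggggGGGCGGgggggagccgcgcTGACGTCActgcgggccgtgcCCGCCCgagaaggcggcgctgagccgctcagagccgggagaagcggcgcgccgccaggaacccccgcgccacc
Mir124-2hg: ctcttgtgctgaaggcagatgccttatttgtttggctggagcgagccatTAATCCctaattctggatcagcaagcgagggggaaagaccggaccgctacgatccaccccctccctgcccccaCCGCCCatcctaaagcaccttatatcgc
Vax2os: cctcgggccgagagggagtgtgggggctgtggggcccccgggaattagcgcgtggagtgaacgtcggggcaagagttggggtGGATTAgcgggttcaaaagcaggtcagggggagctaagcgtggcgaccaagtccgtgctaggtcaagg

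The Gm10830 stretch holds 9 CpG dinucleotides, 2 CCAAT boxes, a GC box and an E-box. The Gm19510 stretch holds no CpG and has 1 match each to the TATA box, the CCAAT box and AP-1, and the Gm38563 stretch has 7 CpGs and no match to any of the 12 motifs. AA465934 has 12 CpGs, 2 CCAAT boxes and an E-box. Neat1 and Mir9-3hg, with 15 and 21 CpGs, each hold a CRE and at least 1 GC box. A match describes letters only.

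The first question was how regularly these promoters were open. A peak was present in all 18 libraries at 408 of the 965 (42.3%), against 33.6% of all 73567 regions. Among 12132 promoters of protein-coding genes, chosen with the same window, 9827 (81.0%) were called in all 18, and among 59322 regions with no transcript start in the window the share was 23.7%. The lncRNA windows left out for a coding start within 2.5 kb stood near the coding promoters, with 798 of 1023 (78.0%) called throughout. At the other end, 219 lncRNA promoters (22.7%) were called in only 2 to 5 libraries, compared with 5.81% of coding promoters and 35.2% of regions without a start. The share called in all 18 was 41.2% for lincRNAs, 38.4% for antisense transcripts and 56.1% for processed transcripts. These shares are descriptions over regions, which are not replicates.

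**Figure D1:**
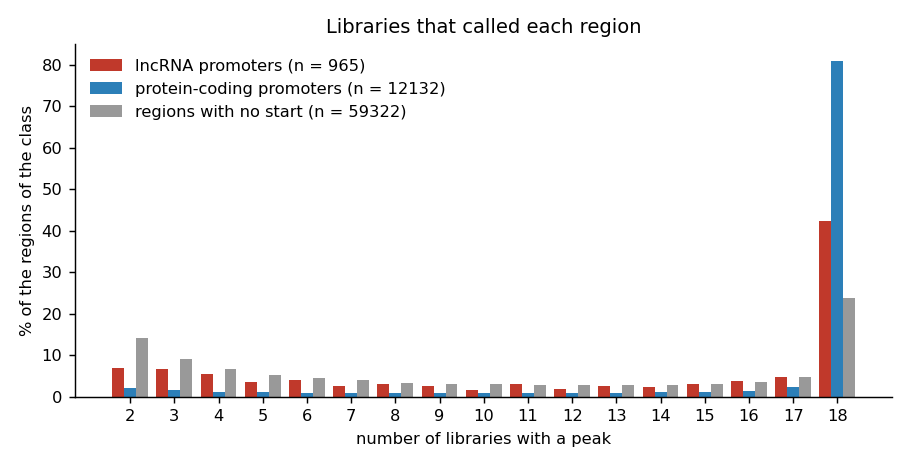
Number of the 18 libraries that called each region (horizontal axis) against the percentage of regions of its class (vertical axis), for lncRNA promoters, protein-coding promoters and regions with no transcript start in the window. The lncRNA promoters reach 42.3% at 18 libraries, between the coding promoters (81.0%) and the regions without a start (23.7%), and 22.7% of them lie at 2 to 5.

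The height of a peak was expressed as its percentile by −log10 q among all peaks of its library, so that 100 is the highest peak. Averaged over the libraries that called it, the median lncRNA promoter stood at the 37.8th percentile, the median coding promoter at 84.5 and the median region without a start at 28.6. Promoters called in all 18 libraries had a median percentile of 73.8 and a median width of 893 bp, whereas those called in 2 to 5 had 15.9 and 245 bp. Promoters called in 6 to 11 and in 12 to 17 libraries lay between, at 24.2 and 33.8. Breadth, height and width are measured on the same peaks and are not independent. The width spans all merged peaks, so that a region merged from more libraries can be wider for that reason.

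The summits gathered just upstream of the start. In 624 promoters (64.7%) the summit lay from 200 bp upstream to 100 bp downstream, with a median position of −106 bp from the start over all. This share was 74.5% for promoters called in all 18 libraries and 58.4% for those called in 2 to 5. In 14 promoters, lncRNA starts on both strands fell in the window, and 9 of these were called in all 18.

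Base composition differed in the same order. In 300 bases around the summit, the median CpG observed-to-expected ratio was 0.526 for lncRNA promoters called in all 18 libraries and 0.3 for those called in 2 to 17, against 0.808 for coding promoters and 0.23 for regions without a start. Median GC content was 56.3%, 52.7%, 65.0% and 50.0% in these classes. With CpG-rich defined as a ratio of at least 0.6 and a GC content of at least 55%, 210 lncRNA promoters (21.8%) were CpG-rich, compared with 74.6% of coding promoters. Of the 210, 157 (74.8%) were called in all 18 libraries and their median percentile was 72.6. Of the other 755, 251 (33.2%) were called in all 18, at a median percentile of 32.4. Repeat sequence, as masked in the reference, filled at least 50% of the 300 bases in 34 lncRNA promoters (3.52%), compared with 5.22% of all regions.

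**Figure D2:**
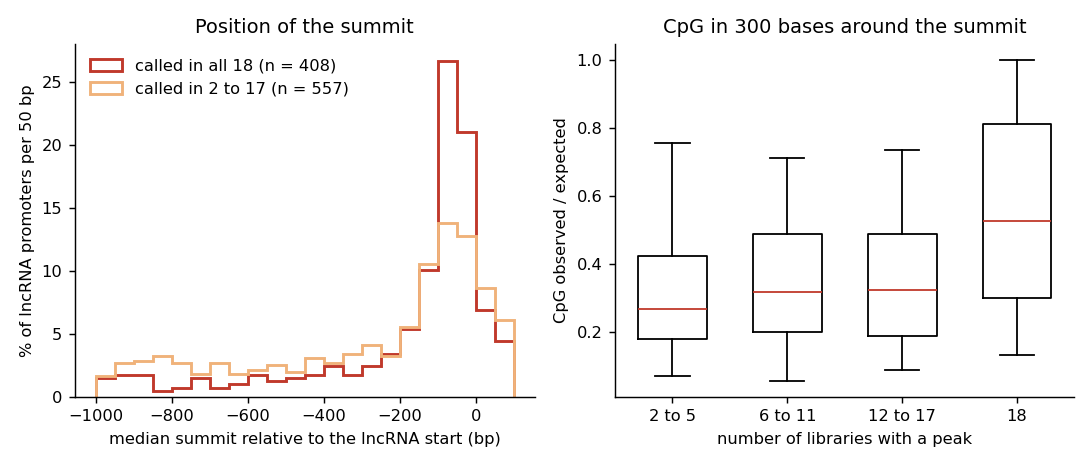
Left, median summit of each lncRNA promoter relative to the transcript start in bp, as the percentage of promoters per 50 bp, for the 408 called in all 18 libraries and the 557 called in 2 to 17. Right, CpG observed-to-expected ratio in 300 bases around the summit by number of libraries, with median, quartiles and whiskers to the 5th and 95th percentiles. The summits peak within 100 bp upstream of the start, and the median ratio is highest, at 0.526, for promoters called in all 18.

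The GC box was found in the 300 bases of 42.4% of lncRNA promoters called in all 18 libraries and in 17.6% of the remainder, against 69.6% of coding promoters and 22.2% of all regions. The CRE was found in 3.68% and 1.08%, against 3.63% and 1.05%. The TATA box was present in 10.8% of lncRNA promoters called throughout and 7.18% of the remainder, against 3.98% of coding promoters and 10.3% of all regions. The core bound by Crx and Otx2, the homeodomain factors of photoreceptors and bipolar cells, was found in 14.1% of all lncRNA promoters, compared with 5.7% of coding promoters and 17.7% of all regions. For CTCF, which organises chromatin loops, the shares were 5.6%, 1.39% and 6.51%, and for AP-1, the Fos and Jun site, 8.91%, 3.85% and 9.1%. CCAAT boxes were about as frequent in every class, at 33.9%, 37.4% and 32.5%. The remaining motifs, each given for lncRNA promoters, coding promoters and all regions, were ETS (2.07%, 7.99%, 1.73%), NRF1 (1.66%, 5.54%, 1.62%), the homeodomain core (5.39%, 1.31%, 6.21%), the E-box (8.6%, 10.2%, 6.52%) and STAT (8.08%, 5.04%, 7.07%). Short GC-rich letters occur more often where GC content is high, and these shares were not adjusted for it.

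The strongest lncRNA promoters rivalled the tallest peaks of the retina. AA465934 (chr11:83291209-83292338), a processed transcript whose summit lay 32 bp upstream of its start, stood at percentile 99.6 ± 0.367 (SD, n = 18 libraries), and its lowest value in any library was 99. Gm5165 followed at 99.4 ± 0.633, Gm10433 at 99.3 ± 0.403 and 9430037G07Rik at 99.2 ± 0.676. The next 6 were 1700028E10Rik, Gm6712, Gm12915, Gm17552, 5430416N02Rik and 5730405O15Rik, with means from 98.4 to 98.9. These 10 were picked among promoters called in every library. The SDs over libraries were between 0.367 and 1.32, and a percentile cannot exceed 100, which limits the spread. The widest promoters were those of 2410080I02Rik (2846 bp), Gm27032 (2368 bp) and E130102H24Rik (2014 bp), which stood lower, at 72.7 ± 4.9, 65.8 ± 5.34 and 76.9 ± 3.8. Height and width thus ranked different promoters first.

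Of 23 lncRNA genes listed for the retina and nervous system, 9 had a promoter of the kind counted here, 4 had an open region only beside a coding start (Crnde, Lhx1os, Otx2os1 and Tug1) and 10 had none, among them Miat, Rmst and Sox2ot. The 9 genes held 12 promoters, 9 of them called in all 18 libraries. Vax2os, opposite the gene of the eye-patterning factor Vax2, was at percentile 85.5 ± 2.89 (n = 18) with a range of 79.1 to 89.1. A second Vax2os region of 260 bp further upstream was called in only 8 libraries and stood at 25.2 ± 15.8. Mir124-2hg, named after the neuronal miR-124, was at 84.5 ± 2.83, with its summit 7 bp upstream of the start. Mir124a-1hg was lower, at 70.3 ± 3.69, and the ranges of these promoters, 80.4 to 89.6 and 65.4 to 76.9, did not overlap. Malat1, an abundant nuclear RNA of splicing speckles, had 2 regions called in every library: a broad one with its summit at −981 bp, at 88.8 ± 2.82 and a narrow one on the start, at 42.2 ± 14.7. Neat1, the scaffold of paraspeckles, stood at 77.3 ± 6.38. Meg3, an imprinted lncRNA of neurons, was called in 15 libraries at a modest 22.3 ± 12.7, and Six3os1, opposite the eye-field gene Six3, in only 2.

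Some microRNA host transcripts can be tied to the small RNAs that they contain. In the RefSeq microRNA table (GRCm38.p6), 21 of the 913 genes held a mature microRNA on the same strand, and no entry was matched to Mir124-2hg or Mir124a-1hg. The mature sequences below belong to hosts discussed here, with the seed (bases 2 to 8) in capitals.
miR-9-5p: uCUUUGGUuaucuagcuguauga
miR-22-3p: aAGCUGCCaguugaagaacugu
miR-99a-5p: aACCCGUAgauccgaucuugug
miR-100-5p: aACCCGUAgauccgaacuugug
let-7c-5p: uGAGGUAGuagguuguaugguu
miR-125b-5p: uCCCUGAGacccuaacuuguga
miR-199a-5p: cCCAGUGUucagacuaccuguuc

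The same mature miR-9-5p, a regulator of neural progenitors, lies in Mir9-3hg (chr7:79505279-79505301) and in C130071C03Rik (chr13:83738821-83738843), 5162 bp downstream of the start in the former. Both hosts had promoters in all 18 libraries: Mir9-3hg at percentile 58.9 ± 8.01 and C130071C03Rik at 57.1 ± 8.24 and, at a further start, 47.7 ± 9.42. The ranges over libraries were 42.3 to 69.9 for Mir9-3hg and 41.1 to 70.0 and 30.4 to 60.8 for C130071C03Rik, and they overlapped. Mir22hg, host of miR-22-3p, had the highest promoter of the listed small-RNA hosts at 97.1 ± 1.12. The seed of miR-99a-5p is also that of miR-100-5p, and miR-125b-5p is encoded in each of their hosts, Mir99ahg and 3110039I08Rik, the former also holding let-7c-5p. These hosts had the most promoters per gene together with Gm17231: 4 for Mir99ahg and 3 each for 3110039I08Rik and Gm17231. None of the 4 Mir99ahg promoters was called in every library: they were called in 16, 3, 10 and 3 along the gene, with mean percentiles of 42.9, 12, 24.7 and 19.6. Those of 3110039I08Rik were called in 17, 14 and 4 libraries, at 41.2, 42.2 and 38.6. Only the one called in 17 libraries has its start upstream of miR-100-5p, by 56608 bp. The starts of those called in 14 and 4 libraries lie downstream of miR-100-5p and upstream of miR-125b-5p. The 3 promoters of Gm17231, an antisense transcript, were called in all 18 libraries at 81.1, 77.0 and 72.3. Among genes with 2 promoters, 1700012C14Rik had them called in 18 and 13 libraries and 1700061N14Rik in 4 and 11. Dnm3os, host of miR-199a-5p and known from fibroblasts and developing bone, was called in only 2 libraries.

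Of 28 listed hosts of microRNAs and small nucleolar RNAs, 14 had 17 promoters, 12 of them in all 18 libraries, and their median percentile was 79.8. Among the snoRNA hosts, Snhg15 stood at 96.5 ± 1.95, Snhg8 at 94.3 ± 1.22, Snhg6 at 93.8 ± 4.2, Snhg5 at 93.0 ± 3.44 and Snhg12 at 91.8 ± 4.07. Snhg20 and Snhg17 were lower, at 79.8 ± 4.72 and 72.6 ± 4.48. Dleu2, host of miR-15a and miR-16, stood at 91.4 ± 2.79, and Mir670hg, called in 17 libraries, at 43.8 ± 13.6. Gas5, Snhg1, Snhg3, Snhg9, Snhg10, Snhg18 and Zfas1 had an open region only within 2.5 kb of a coding start and are not counted. The 7 hosts with no region were Mir133a-1hg, Mir142hg, Mir155hg, Mir17hg, Mirg, Rian and Snhg14.

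**Figure D3:**
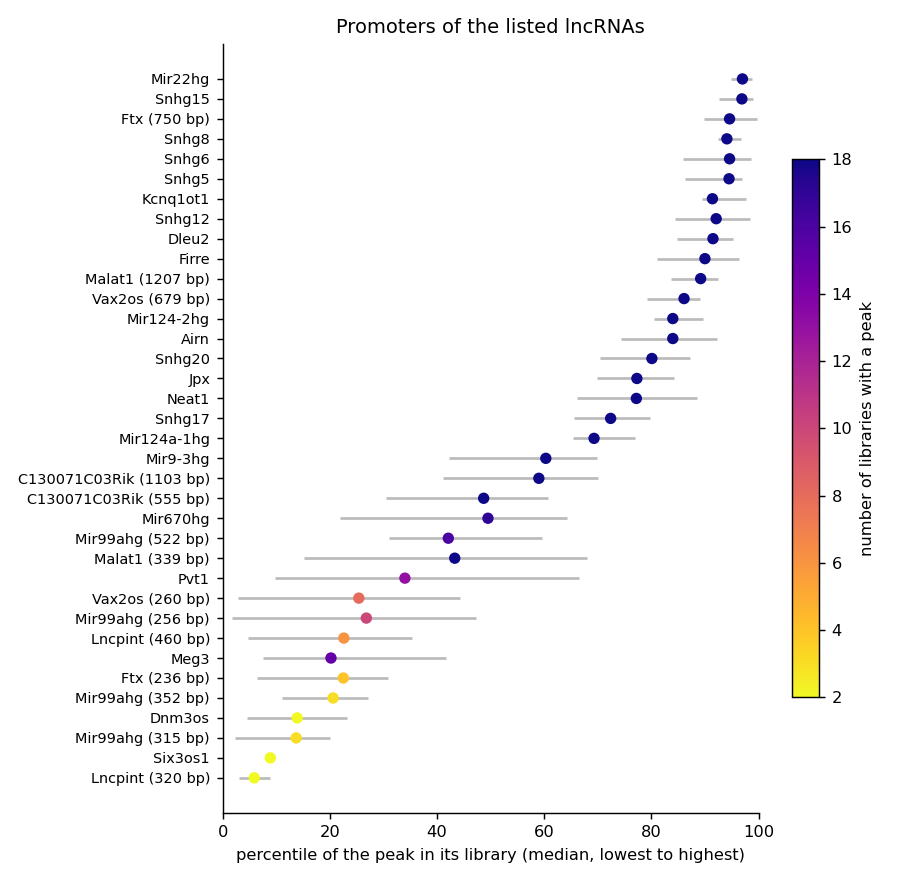
Percentile of the peak within its library (horizontal axis) at the promoters of listed lncRNAs, 1 line per promoter, with the median as a point and the lowest to highest library as a bar. The colour of the point gives the number of libraries with a peak, and where a gene has several promoters their width in bp is given. Mir22hg has the highest median with a bar from 94.9 to 98.7, and promoters called in 10 or fewer libraries have medians below 27.

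Among 13 genes listed for imprinting and X inactivation, 6 had 7 promoters and 5 of these were called in all 18 libraries. Ftx, an activator of Xist, stood at 95.3 ± 3.1, Kcnq1ot1, which silences its imprinted neighbours, at 92.2 ± 2.44, Firre, which shapes nuclear contacts of the X chromosome, at 89.0 ± 4.57, Airn, which silences Igf2r, at 84.0 ± 4.65 and Jpx, another activator of Xist, at 77.6 ± 4.14. A second Ftx region was called in 4 libraries. H19, Xist, Tsix, Rian, Mirg and Snhg14 had no open region in the window. Of 15 genes listed for stress, p53 and inflammation, 6 had 8 promoters, and the 4 called in all 18 were those of Malat1, Neat1 and Mir22hg, which other lists also hold. Pvt1, the neighbour of Myc, was called in 13 libraries at 35.6 ± 15.8. The 2 promoters of Lncpint, a p53-induced lncRNA, were called in 6 and 2, and Trp53cor1, Hotair and Fendrr had none.

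Many symbols ending in os, as or ot, with or without a number, name transcripts opposite or overlapping another gene. The list of them was made by spelling alone and also took in Gas5, which is not named in this way. Of 296 such genes, 31 had 33 promoters, 65 had a region only near a coding start and 200 had none. Rab10os was highest at 97.3 ± 1.66, followed among those not yet named by Pitpnm2os2 (87.9 ± 3.81) and Kdm6bos (86.0 ± 2.4). In this list 17 of 33 promoters (51.5%) were called in all 18 libraries. Over the 5 lists together, none of the promoters had an exact p under 0.05 for age or for IOP across ages, of the 1, 1, 0, 0 and 3 promoters per list that could have passed for age and the 0, 0, 0, 1 and 1 for IOP. Their medians were percentiles 58.0 (retina and nervous system), 79.8 (small-RNA hosts), 84.0 (imprinting and X inactivation), 38.9 (stress) and 51.2 (opposite strand), beside 37.8 for all 965.

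The libraries carried open promoters of retinal cells. Of 25 coding marker genes of retinal cells, 12 were called in all 18 libraries and 4 in none (Grm6, Tfap2b, Sncg and Aqp4). Called in all 18 were 6 of 7 photoreceptor genes and 2 of 5 genes of ganglion cells. For amacrine and horizontal cells it was 2 of 5, and for bipolar cells and Müller glia 1 of 4 each. All 20 markers of pigment epithelium, immune cells, endothelium, lens, muscle and liver were called in no library. The length of the shortest peak in a list, a technical trait, was 79 to 89 bp in the untreated libraries, 114 to 122 bp in 5 of the other libraries and 148 to 157 bp in the remaining 7. The 5 libraries with the shorter minimum called 752.6 ± 68.9 lncRNA promoters and the 7 with the longer called 633.6 ± 53.2. They were not spread evenly: 2 of 3 contralateral libraries at 18 months and 1 of 3 in each of the other contralateral and IOP groups were of the shorter kind. Since no untreated library shared its class with another group, this trait and the untreated state cannot be told apart.

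The number of lncRNA promoters called per library was 600, 836 and 622 in the 3-month-old contralateral retinas, 697, 663 and 654 after IOP and 617, 600 and 763 in untreated retinas. At 18 months it was 800, 685 and 759 in contralateral retinas, 671, 677 and 534 after IOP and 638, 602 and 612 in untreated retinas. The groups overlapped at 3 months. At 18 months every contralateral library lay above every IOP library. The same held there for all regions, of which 65.8% to 74.2% were called in contralateral retinas and 46.6% to 62.6% after IOP. As a share of all regions called in a library, lncRNA promoters made up 1.42% to 1.47% in those contralateral retinas and 1.47% to 1.56% after IOP. In untreated retinas this share was 1.41% to 1.48% at 3 months and 1.33% to 1.38% at 18 months, without overlap, and over all libraries it ran from 1.33% to 1.6%.

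The second question was whether age changed which of these promoters were open. Over the 6 control libraries per age, the means were 682.7 ± 81.4 promoters at 18 months and 673.0 ± 101 at 3 months (SD, n = 6), a difference of 9.67 that is smaller than the spread. It was −20.2 with equal numbers of peaks and −13.8 without 18-month contralateral replicate 1, so that its direction is not fixed. The difference had opposite signs in the kinds of control, 62.0 between contralateral retinas and −42.7 between untreated retinas. Region by region, calls in 6 libraries of 18 months were compared with calls in 6 of 3 months by Fisher's exact test, which was applied to all 73567 regions. Of 128 lncRNA promoters with enough variation to reach an unadjusted p under 0.05, 1 did so with more calls at 18 months, beside 3.19% of all such regions, and 1 with more calls at 3 months, beside 0.385%. After Benjamini-Hochberg adjustment over the 9868 regions whose number of calls allowed a p under 0.05, none of the promoters passed (Fisher's exact test, smallest adjusted p = 0.345), and neither did any other region.

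Gm10830 was the promoter with more calls at 18 months. It is a lincRNA (ENSMUSG00000099758.1) with an open region of 1180 bp (chr15:103101672-103102851), and a second lincRNA, Gm28876, starts 126 bp away on the opposite strand. No peak was called in any of the 9 libraries of 3 months. In the 18-month-old retinas its percentiles were 71.0, 69.2 and 67.1 in contralateral, 61.4, 60.4 and 51.2 after IOP and 62.9, 76.4 and 72.0 in untreated libraries, a mean of 65.7 ± 7.59 (n = 9). All 9 libraries of one age thus had a peak above the middle of the list and none of the other age had any, with an exact p of 0.00216 over the 12 controls, the smallest this design can give, and an adjusted p of 0.345. The nearest other open region, chr15:103109696-103110713, lay 7903 bp away and was called in all 18 libraries, and of 8 other regions within 50 kb it was the 1 called throughout. The nearest coding start, of the DNA glycosylase gene Smug1, was 55822 bp away. The exact p stayed between 0.00216 and 0.0152 under the other peak thresholds and strata tried. When a peak had to overlap 50% of the region, it was called in 5 control libraries of 18 months and 0 of 3 months.

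Gm19510 (chr15:59795774-59796062, 289 bp), a lincRNA whose region has its summit at −950 bp from the start, was called more often at 3 months. It was found in all 6 control libraries of 3 months, at percentiles 27.5, 60.5, 0.133, 2.6, 15.9 and 36.0, and in 1 of 6 of 18 months, at 27 (exact p = 0.0152, adjusted p = 0.424). After IOP it was called in 1 of 3 libraries at each age. Some of these peaks were among the lowest of their lists, and with a threshold of q at most 0.01 the p was 0.0801.

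Within 1 kind of control, 3 libraries against 3 cannot give a p below 0.1, and exclusive calls were counted. Among contralateral retinas, 6 of 92 lncRNA promoters called in exactly 3 of 6 libraries were exclusive to 18 months, beside 12.2% of all such regions, and 1, Gm37799, was exclusive to 3 months, beside 1.3%. Among untreated retinas, 4 of 71 were exclusive to 18 months, beside 12.5%, and 13 (18.3%) to 3 months, beside 10.9%. Gm10830 was the 1 promoter exclusive to 18 months in both kinds of control, and Gm19510 was among the 13 of the untreated retinas.

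**Figure D4:**
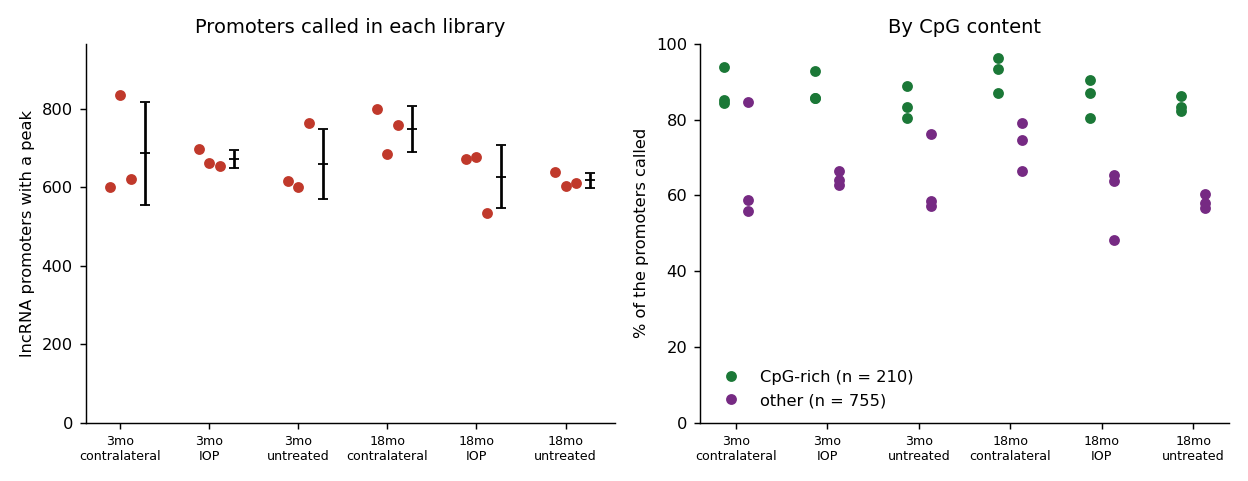
Left, number of lncRNA promoters with a peak in each library by group, with the mean and SD of 3 libraries beside the points. Right, percentage called of the 210 CpG-rich and the 755 other lncRNA promoters in the same libraries. Each contralateral library of 18 months lies above each IOP library of that age in the left panel, and the spread between libraries is wider for the promoters that are not CpG-rich.

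The third question was the effect of mild IOP elevation. At 3 months, 671.3 ± 22.7 promoters were called after IOP and 686.0 ± 130 in contralateral retinas, a difference of −14.7 that is within the spread. It was 10.3 with equal numbers of peaks and 60.3 without contralateral replicate 2. At 18 months the means were 627.3 ± 80.9 and 748.0 ± 58.3, a difference of −121 promoters. The lists differed likewise in length, with 36011, 48688 and 48723 peaks after IOP against 51166 to 60755 in contralateral retinas. Among libraries with the shorter minimum length, 671 promoters were called after IOP and 800 and 759 in contralateral retinas, and among those with the longer, 677 and 534 against 685. When each library was cut to its 36011 highest peaks, the difference was 3.33. The share of regions called fell alongside in regions without a start, by 16.0 percentage points, compared with 12.5 for lncRNA promoters and 3.7 for coding promoters. Among CpG-rich lncRNA promoters 90.5%, 87.1% and 80.5% were called after IOP and 96.2%, 87.1% and 93.3% in contralateral retinas. Among the others the shares were 63.7%, 65.4% and 48.3% against 79.2%, 66.5% and 74.6%, and the groups did not overlap. Regions without a start did not overlap either, at 38.3% to 56.6% after IOP against 60.3% to 69.9%. The same held for all regions, at 46.6% to 62.6% against 65.8% to 74.2%. No test is given for these sums over promoters.

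Joining the ages as strata, an exact conditional test compared 6 IOP with 6 contralateral libraries at every region. Of 68 lncRNA promoters that could reach an unadjusted p under 0.05, 0 were called more often after IOP (exact test, beside 1.62% of all such regions) and 2 less often, Gm38563 and Gm32123 (beside 3.43%). None passed after adjustment over the 5572 regions of that kind (exact test, smallest adjusted p = 0.397). Gm38563 (chr15:61157535-61158062, 528 bp), a lincRNA far from coding genes, was called in all 6 contralateral libraries, at percentiles 12.5, 50.7 and 33.4 at 3 months and 53, 46.2 and 41.4 at 18 months, and in 1 of 6 IOP libraries, at 27.3 (exact p = 0.02). In untreated retinas it was called in 2 of 3 libraries at 3 months and 3 of 3 at 18 months, at percentiles from 8.82 to 22.4. Gm32123 (chr14:25108805-25109122) was called in 5 of 6 contralateral libraries, at 11.3, 21.9, 48.3, 22.8 and 6.3, and in 0 of 6 after IOP (exact p = 0.02). Among untreated retinas Gm32123 was called in 1 of 3 libraries at 3 months and 0 of 3 at 18 months. In the equal-sized lists its p was 0.5, whereas that of Gm38563 stayed at 0.02. When a peak had to overlap 50% of the region to count, the p was 0.5 for Gm38563 and 0.08 for Gm32123. With same-numbered libraries as a replicate block the p was 0.0625 for each, although the labels do not say that a number marks 1 animal.

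At each age alone only exclusive calls could be counted. At 3 months, of 62 lncRNA promoters called in exactly 3 of 6 libraries, 1 was gained after IOP (Gm48001, beside 2.91% of all such regions) and 1 lost (Gm33045, beside 3.22%). Gm48001, antisense within Efr3b, had low peaks after IOP at percentiles 5.1, 10.7 and 14.0, and it was also called in 1 library each of the untreated 3-month-old and of all 18-month-old groups. Gm33045 was called in contralateral retinas at 34, 50.7 and 12.2, but in no untreated library of 3 months. Without contralateral replicate 2 of 3 months, the longest list at 66160 peaks, 21 of 60 promoters with 3 calls met the condition for a gain, beside 25.1% of all such regions. Without contralateral replicate 1 or 3 of that age, 11 of 95 and 10 of 88 promoters with 2 calls met that for a loss, beside 11.4% and 8.52%.

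At 18 months, of 87 promoters called in exactly 3 of 6 libraries, 3 were gained after IOP (beside 2.83% of all such regions) and 17 (19.5%) lost, beside 26.4%. The gained promoters were Gm10165, at percentiles 38.9, 55.4 and 24.7, 9130221F21Rik, at 29.9, 50.7 and 23.6, and Gm40117, at 56.3, 21.6 and 22.2. None of the 3 was called in an untreated library of either age. At 3 months, they were called in 2, 1 and 1 IOP libraries, and in 1, 0 and 0 contralateral libraries. Gm40117, an antisense transcript 32128 bp from the start of Wnt2b, has an open region called in all 18 libraries 1099 bp away, whereas 9130221F21Rik has no other open region within 50 kb. Of the lost promoters, the 5 with the highest mean percentile were Gm44717, Gm49797, Gm38563, Gm42797 and Gm11752, with means from 27.7 to 33.6. Gm49797 was called in 3 of 3 contralateral and 3 of 3 untreated libraries of 18 months. Gm44717 and Gm11752 were called in no untreated library of that age, and Gm42797 in 1. Hoxd3os1 was the 1 promoter of the lists among the 17. In equal-sized lists of 36011 peaks, 6 of 49 promoters with 3 calls were gained and 5 lost, beside 12.4% and 10.6% of all such regions. Leaving out 1 library gave 18 to 49 lost promoters. The highest count came without contralateral replicate 2, where 49 of 97 promoters with 2 calls met the condition, beside 43.3% of all such regions. Without contralateral replicate 3, IOP replicate 1 or IOP replicate 2 the counts were 31, 31 and 32, beside 30.9%, 42.8% and 47.1%. Without IOP replicate 3, 6 promoters were gained, beside 6.73%.

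**Figure D5:**
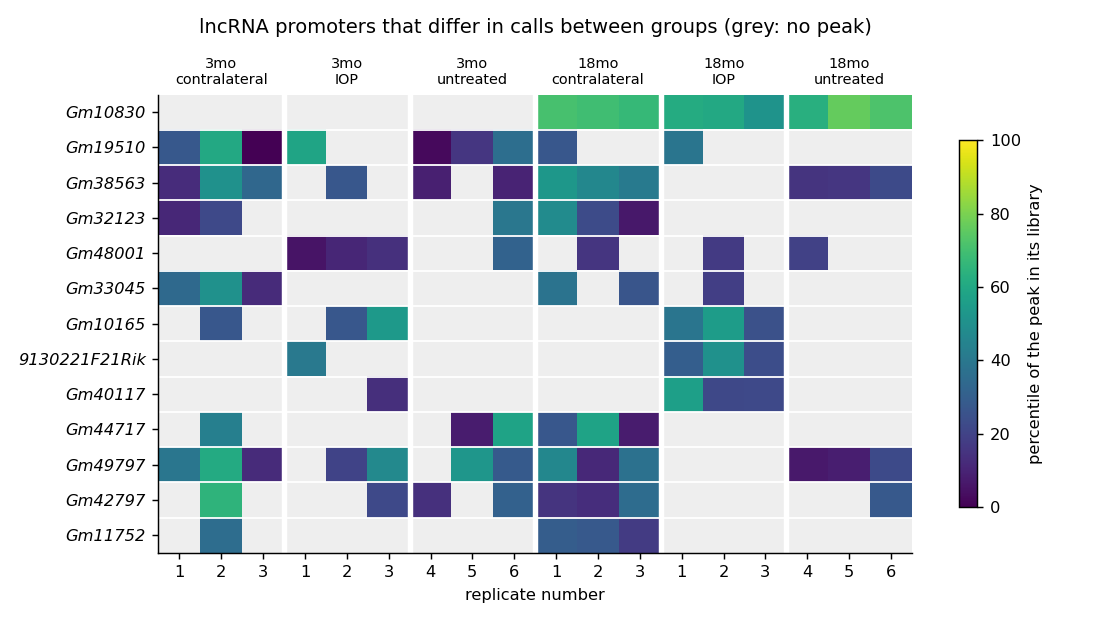
Percentile of the peak in each of the 18 libraries (colour) at 13 lncRNA promoters with differing calls between groups, with grey where no peak was called. Gm10830 is coloured in all 9 libraries of 18 months and grey in all 9 of 3 months, whereas the other promoters have gaps in several groups and mostly low percentiles.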

How the data were processed

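ATAC-seq was done on 18 mouse retinas. The authors called peaks in each library on its own with MACS2 on mm10 at a q-value threshold of 0.05. The submitters' processing notes also name STAR 2.7.8a, HOMER, edgeR and bedtools 2.29.2, with no role for each. Each deposited list gives peak coordinates with the summit, an integer score, a fold over the local background (a ratio), and the −log10 p-value and −log10 q-value at the summit. The deposited score was 10 times the −log10 q, cut to a whole number, and was not used. Read totals were not recorded in the lists, so that depth, and the precision it gives, is unknown. A list also holds nothing below its q-value threshold, and filters before peak calling are not given in the sources used here. No further columns of per-sample values were present.

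Overlapping peaks (at least 1 bp) from the 18 lists were joined into regions, regions found in at least 2 libraries were kept, and a library called a region when a peak overlapped it by at least 1 bp. Transcript starts and gene types came from GENCODE M21 basic. The gene of a promoter was the lncRNA gene with the nearest start. Percentiles rank the −log10 q within each library. CpG content, repeats and motifs were read from 300 bases of GRCm38.p6 around the median summit, and every peak ended within the length of its chromosome in that build. Promoter entries of RefSeq matched 410 of the 913 genes by symbol.

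Groups came from the labels: 2 ages, with contralateral, IOP and untreated retinas. Age was tested per region over 6 against 6 control libraries with a two-sided Fisher's exact test, and IOP over 6 against 6 with a two-sided exact conditional test stratified by age. P-values were adjusted by the Benjamini-Hochberg method over all regions whose number of calls allowed a p under 0.05. With 3 against 3 libraries, exclusive calls (3 of 3 against 0 of 3) were counted. The tests were checked on simulated data. Named promoters were those of the gene lists and up to 5 per comparison and direction with the smallest p or the highest mean percentile. Also named were the 10 highest of those called in all 18 libraries, the 3 widest and the 5 genes with the most promoters. The promoters and lists were chosen with earlier results of these data known. Alternatives were a q threshold of 0.01, an overlap of 50% of the region, equal numbers of peaks, other windows, strata and annotation, single kinds of control and leaving out each library. Python 3.11.15, numpy 2.4.6, pandas 2.3.3, scipy 1.17.1, matplotlib 3.10.9 and samtools 1.23.1 were used.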

Additional observations from a re-analysis of the deposited data

How the results depend on the processing

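With a window of 2.5 kb on either side of the start, 2305 regions would have been counted in place of 965. With a q threshold of 0.01, and also when peaks had to overlap 50% of the region, 0 promoters in place of 1 were called more often at 3 months (Fisher's exact test at an unadjusted p under 0.05). The overlap of 50% also gave 2 promoters more often after IOP across ages, 6 gained and 3 lost at 3 months and 6 gained at 18 months. The share of all regions was not computed with either setting. With equal numbers of peaks per library, 2 were called more often at 18 months, and 4 more often and 1 less often after IOP across ages. For these tests the share of all regions was not computed. At 3 months 6 of 56 promoters with 3 calls (10.7%) were gained and 1 lost, beside 6.19% and 4.49% of all such regions. At 18 months 6 of 49 were gained and 5 lost, beside 12.4% and 10.6%, and the difference in the number called changed from −121 to 3.33. Exclusive calls in contralateral libraries alone gave 6 promoters for 18 months, and in untreated libraries alone 4 for 18 months and 13 for 3 months. With the comprehensive annotation, an alternative chosen after seeing the data, 0 were gained at 3 months, since Gm48001 no longer met the rule.

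Leaving out each library in turn gave 1 to 7 promoters more often at 18 months, with 7 without 3-month contralateral replicate 2, and 1 to 3 more often at 3 months, with 3 without 18-month contralateral replicate 3. Across ages it gave 0 to 3 more often after IOP, with 3 without 3-month IOP replicate 1, and 2 to 10 less often, with 10 and 9 without 3-month contralateral replicates 3 and 1. For these counts from the age and IOP tests, the share of all regions was not computed, so that they cannot be set against it. At 3 months 1 to 21 were gained, with 21 (35.0%) without contralateral replicate 2, beside 25.1% of all such regions. From 2 to 11 were lost, with 11 (11.6%) and 10 (11.4%) without contralateral replicates 1 and 3, beside 11.4% and 8.52%. At 18 months 3 to 6 were gained, with 6 (6.12%) without IOP replicate 3, beside 6.73%. From 18 to 49 were lost, with 49 (50.5%) without contralateral replicate 2, beside 43.3%. Fewer libraries then had to meet each condition for gains and losses. The mean number called differed by −13.8 to 42.3 for age, by −57.7 to 60.3 for IOP at 3 months (60.3 without contralateral replicate 2) and by −152 to −74.0 for IOP at 18 months. The exact p of Gm10830 stayed under 0.05 in each alternative run. That of Gm19510 rose to 0.0801 with a q threshold of 0.01 or an overlap of 50% and to 0.182 with equal numbers of peaks; these p-values for single promoters were also computed after seeing the data.

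The deviations of same-numbered IOP and contralateral libraries had correlations of −0.09, −0.08 and 0.06 at 3 months and 0.10, 0.07 and −0.03 at 18 months. With 3 libraries per group, such values cannot show whether a number marks the same animal. With a replicate block, 0 promoters were called less often after IOP, and Gm38563 and Gm32123 each had an exact p of 0.0625. Except as stated, the cause of these changes was not tested. Depth limits every absence: a promoter without a peak may lie just under the threshold of its list.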
